A study of Mus musculus with 8 samples.

Results

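Klhl40, Klhl41, Klhl31 and Klhl38 are 4 kelch-like genes of skeletal muscle, and their transcripts were followed in sections of the embryonic mouse diaphragm. They were chosen by symbol, not by any measured value, and all 4 were found among the 19465 genes of the probe set. Transcripts were counted by 10x Visium, in which probes on a 5 µm paraffin section are captured on barcoded spots of 55 µm, spaced 100 µm apart, and each captured probe is counted once through its unique molecular identifier (UMI). The 8 sections comprised 3 control diaphragms at E14.5 and 2 at E18.5 (E, embryonic day), 1 diaphragm without the voltage sensor of excitation-contraction coupling (CaV1.1 -/-, also called dysgenic) at each of E14.5 and E18.5, and 1 diaphragm at E18.5 in which β-catenin was removed from muscle (bCat cKO). The bCat cKO embryo carried floxed β-catenin alleles and a Cre driven by the human skeletal actin promoter, so that deletion was directed to muscle fibers, whereas CaV1.1 was missing from the whole CaV1.1 -/- embryo. Controls had at least 1 working copy each of CaV1.1 and β-catenin and may therefore have been heterozygous, and bCat cKO embryos came from crosses in which a CaV1.1 allele also segregated. The CaV1.1 -/- embryos came from crosses of CaV1.1 heterozygotes or from crosses in which floxed β-catenin and Cre also segregated. Which cross gave each section is not stated. Because every mutant group was 1 section, its error was borrowed from the spread between the control sections, and the labels do not name the embryo behind each section, so that p-values measure the spread between these sections.

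Kelch-like proteins carry a BTB domain that binds the cullin-3 scaffold and kelch repeats that hold a client protein, and many of them bring clients to the cullin-3 ubiquitin ligase. Klhl40 and Klhl41 sit at the sarcomere, are known for stabilizing the thin filament proteins nebulin and leiomodin-3, and are mutated in nemaline myopathy, a congenital weakness with rod-like bodies in the fibers. Klhl31 is a related muscle protein whose loss in mice causes a congenital myopathy with an excess of filamin C, and Klhl38 is a less studied muscle member.

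The genes are not clustered. In the GRCm38 annotation of GENCODE, Klhl40 (ENSMUSG00000074001) lay on the plus strand at chr9:121777607-121783818 with 6 exons, and Klhl31 (ENSMUSG00000044938) lay on the plus strand of the same chromosome at chr9:77636500-77660127 with 3 exons. Klhl41 (ENSMUSG00000075307) lay on the plus strand at chr2:69670120-69684230 with 6 exons, and Klhl38 (ENSMUSG00000022357) on the minus strand at chr15:58314573-58324169 with 4 exons. None of the 4 overlapped another protein-coding gene.

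The promoters are printed because 3 of the genes have one in the RefSeq table (GRCm38.p6) and the genes changed together between stages. Each sequence runs 5′ to 3′ from 250 bases before to 50 bases after the annotated start on the plus strand, and capitals mark matches, on either strand, to the E-box letters CANNTG bound by myogenic factors and to the motif of MEF2, a muscle transcription factor. The coordinates are chr9:121777357-121777656 for Klhl40, chr2:69669870-69670169 for Klhl41 and chr9:77636482-77636781 for Klhl31, whose RefSeq start lies 232 bases downstream of the GENCODE gene start.
Klhl40: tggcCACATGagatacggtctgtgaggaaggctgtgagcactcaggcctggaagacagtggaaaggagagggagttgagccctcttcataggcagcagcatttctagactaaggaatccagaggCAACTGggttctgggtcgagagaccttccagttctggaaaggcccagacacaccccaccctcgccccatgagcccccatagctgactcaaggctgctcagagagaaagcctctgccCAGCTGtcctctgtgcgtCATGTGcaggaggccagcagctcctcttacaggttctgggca
Klhl41: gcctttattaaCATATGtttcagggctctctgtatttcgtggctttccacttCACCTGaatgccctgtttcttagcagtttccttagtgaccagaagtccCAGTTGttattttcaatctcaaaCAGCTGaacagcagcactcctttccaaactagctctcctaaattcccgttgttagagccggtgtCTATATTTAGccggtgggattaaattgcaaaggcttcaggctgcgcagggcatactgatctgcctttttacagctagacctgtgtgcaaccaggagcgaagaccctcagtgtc
Klhl31: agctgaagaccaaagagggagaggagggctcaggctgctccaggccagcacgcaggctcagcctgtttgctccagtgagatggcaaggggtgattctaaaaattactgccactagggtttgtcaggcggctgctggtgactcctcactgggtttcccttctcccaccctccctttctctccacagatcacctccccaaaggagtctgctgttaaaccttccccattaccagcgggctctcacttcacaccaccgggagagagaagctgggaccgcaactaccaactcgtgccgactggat
The Klhl40 promoter held 4 CANNTG matches and so did that of Klhl41, each with 1 match to the narrower CAGCTG, which every CAGCTG site shares with CANNTG. The Klhl31 window held no match to either. Of 32817 promoters of the same length, 72.3% held CANNTG and 16.3% held CAGCTG. The MEF2 motif was found once, in the Klhl41 promoter, and in 3.19% of all promoters. CATTCC, the core of the MCAT element, and the CArG box were in none of the 3 windows and in 14.7% and 1.63% of all promoters, respectively. These matches describe letters in the windows and not binding.

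Of 12703 spots kept with at least 1000 UMIs, 9873 were called muscle spots by the mean of 9 muscle genes (Acta1, Actn2, Des, Myl1, Mylpf, Neb, Ryr1, Tnnt3, Ttn), none of which is a kelch gene and all of which were detected in the muscle spots of every section. A section held 491 to 3092 muscle spots and 14179161 to 82859104 UMIs. The kelch genes gave 233626 UMIs of Klhl41, 109939 of Klhl31, 58216 of Klhl40 and 6237 of Klhl38 over all kept spots, so that Klhl38 values rest on far fewer counts than the others. Since a probe set does not report per transcript length, levels are compared between samples and not between genes. A spot holds several cells, and fewer muscle fibers in a spot cannot be told apart from less transcript per fiber.

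All 4 transcripts were concentrated in muscle spots. The level in muscle spots, in UMIs per 1000000 UMIs of the same spots (CPM), was 2.38 to 6.91 times that in the remaining spots for Klhl40 over the 8 sections. The ratio was 2.57 to 5.95 for Klhl41, 2.54 to 7.06 for Klhl31 and 1.80 to 3.796 for Klhl38. At least 1 Klhl41 UMI was found in 92.1% to 100% of muscle spots, whereas the share for Klhl38 was 18.2% to 53.3%. The highest ratios for Klhl40, Klhl41 and Klhl31 were all in the bCat cKO section, and that of Klhl38, at 3.796, was in the CaV1.1 -/- section at E18.5. Muscle spots were themselves chosen by expression and the spots beside them can hold fiber ends, so these ratios are a description. In the maps of single spots the signal of Klhl41 followed the muscle and fell at its borders.

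**Figure D1:**
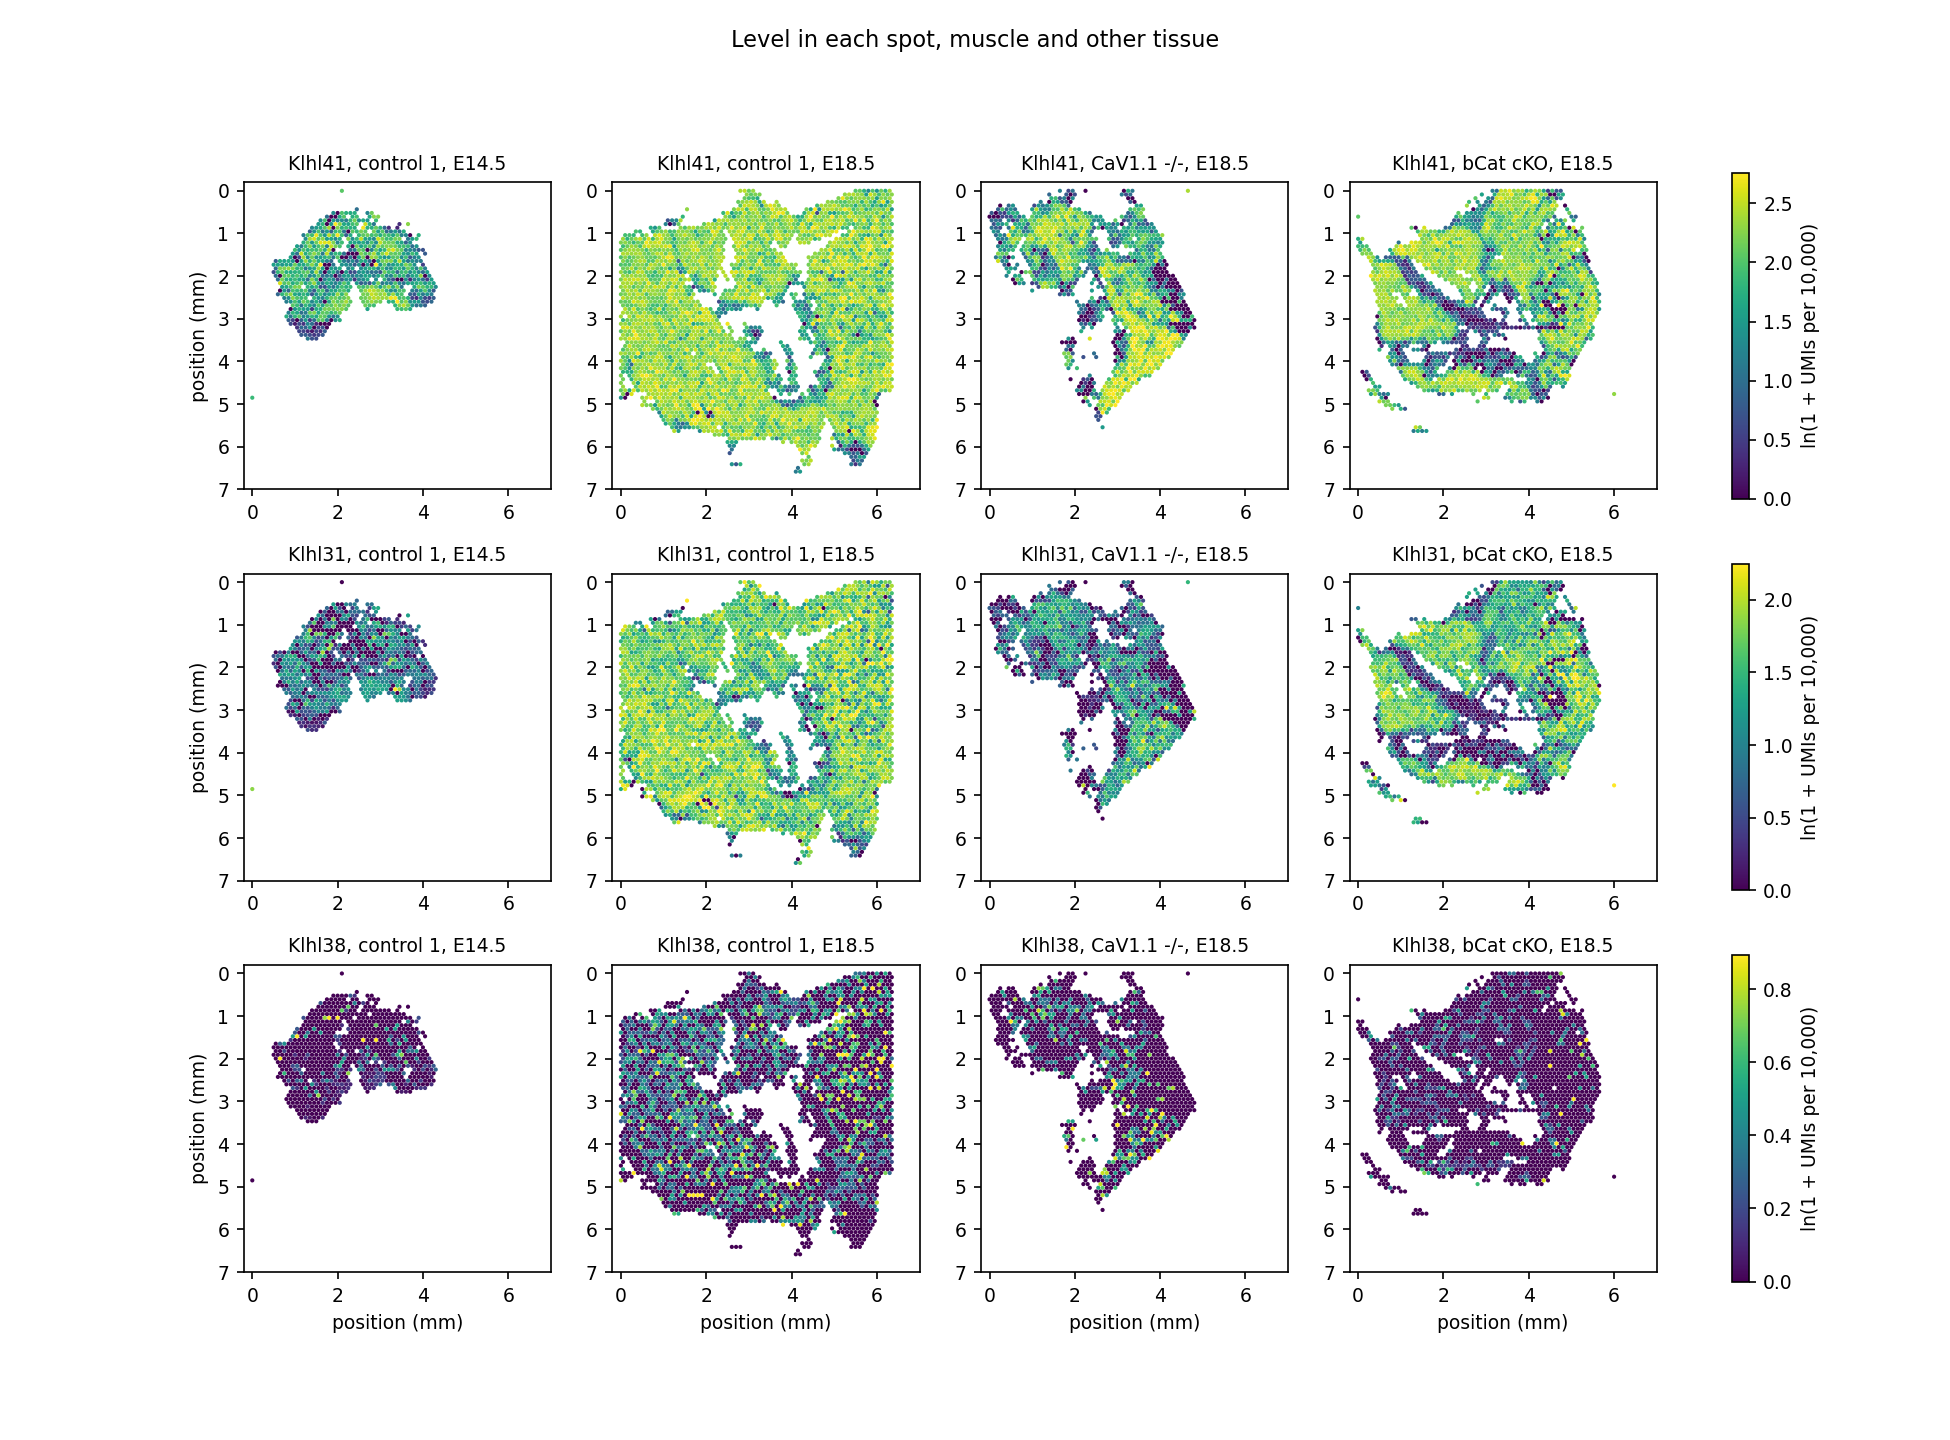
Klhl41, Klhl31 and Klhl38 (rows) in every kept spot of E14.5 control 1, E18.5 control 1, CaV1.1 -/- at E18.5 and bCat cKO (columns), at the spot's position in mm, with color from dark (0) to yellow giving the natural log of 1 plus UMIs per 10000. Klhl41 fills the muscle in each section, with a UMI in 92.1% to 100% of muscle spots, Klhl31 is darker in CaV1.1 -/- than in the E18.5 control, and Klhl38 is sparse and darkest at E18.5 in bCat cKO.

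The summed muscle spots gave 1 level per section, as CPM scaled by the trimmed mean of M values (TMM), which centers most genes at no change. Klhl40 stood at 106, 87.9 and 101 TMM-scaled CPM in the 3 E14.5 controls, 98.3 ± 9.23 (SD, n = 3), and at 289 and 338 in the E18.5 controls. It stood at 66.7 and 152 in the CaV1.1 -/- sections at E14.5 and E18.5 and at 304 in bCat cKO. The lowest section was therefore CaV1.1 -/- at E14.5 and the bCat cKO section lay between the E18.5 controls.

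Klhl41 stood at 557, 397 and 474 TMM-scaled CPM in the E14.5 controls, 476 ± 79.7 (SD, n = 3), and at 1233 and 1177 in the E18.5 controls. The CaV1.1 -/- sections stood at 372 and 786, and bCat cKO at 1005. All 3 mutant sections lay below every control of their stage, and the E14.5 controls spread more for Klhl41 than for the other genes.

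Klhl31 stood at 161, 131 and 145 TMM-scaled CPM in the E14.5 controls, 146 ± 15.1 (SD, n = 3), and at 663 and 682 in the E18.5 controls. It stood at 104 and 219 in the CaV1.1 -/- sections and at 489 in bCat cKO. At E18.5 the CaV1.1 -/- value was nearer to the E14.5 controls than to the controls of its own stage.

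Klhl38 stood at 9.33, 7.73 and 7.54 TMM-scaled CPM in the E14.5 controls, 8.20 ± 0.985 (SD, n = 3), and at 40.4 and 41.4 in the E18.5 controls. It stood at 7.33 and 23.4 in the CaV1.1 -/- sections and at 12.7 in bCat cKO, where 518 UMIs were counted in muscle spots. Klhl38 was thus lowest at E18.5 in bCat cKO, whereas the lowest E18.5 section for the other 3 genes was CaV1.1 -/-.

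**Figure D2:**
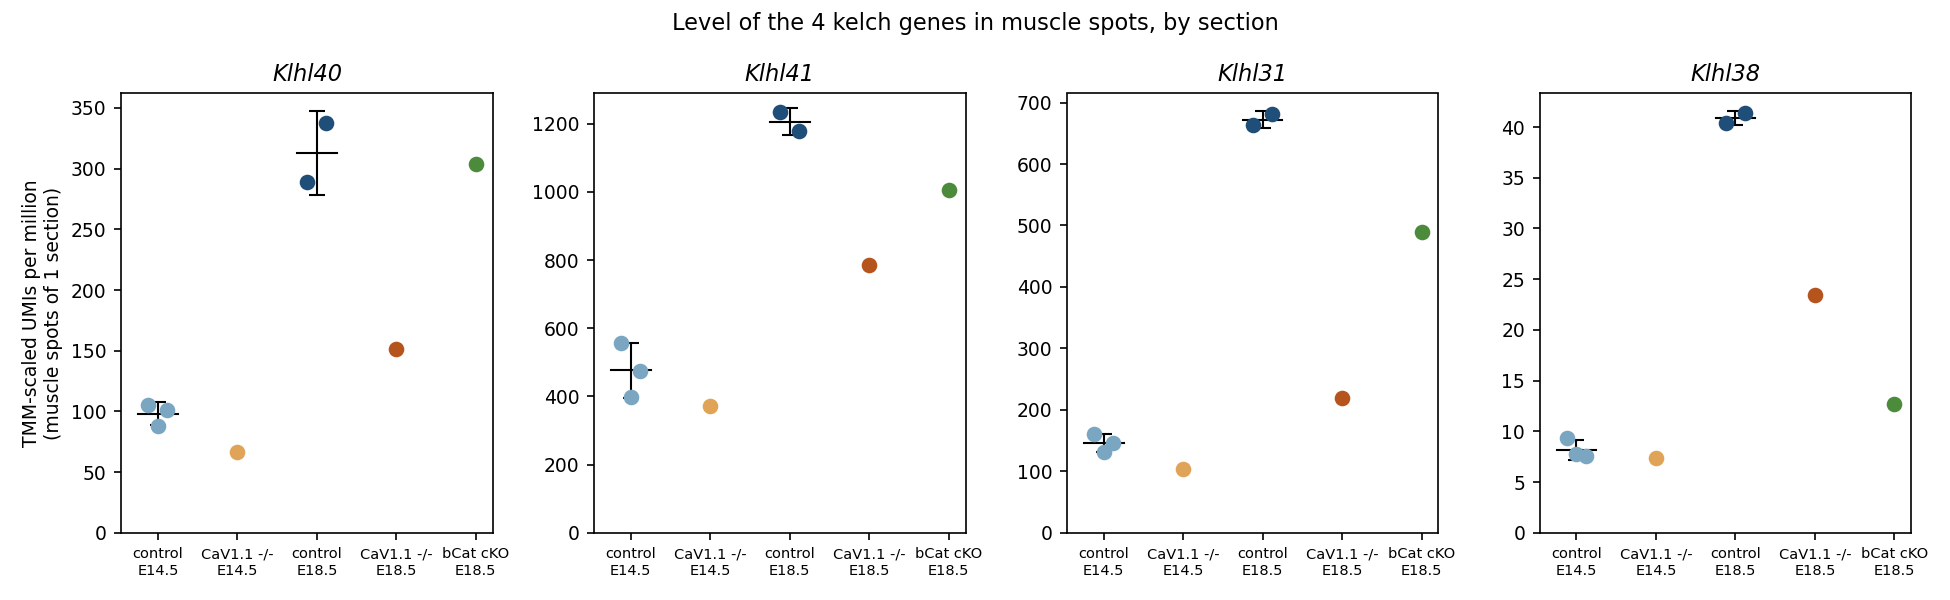
Levels of the 4 genes in muscle spots, 1 point per section, as TMM-scaled CPM against group, with the mean ± SD of each control group (3 sections at E14.5, 2 at E18.5). The E18.5 controls lie above the E14.5 controls for every gene, and the E18.5 mutant that lies lowest is CaV1.1 -/- for Klhl40, Klhl41 and Klhl31 and bCat cKO for Klhl38 (12.7).

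The first comparison asked how control muscle changed between the embryonic and the fetal stage. All 4 genes rose from E14.5 to E18.5 beside 65.6% of all 14832 genes tested that changed in either direction (edgeR quasi-likelihood test, adjusted p below 0.05) and 33.2% that were called higher, and their direction turned over when counts were scaled to the 9 muscle genes instead. Klhl38 rose 4.98-fold, a log2 fold change of 2.32 ± 0.12 (SE, edgeR adjusted p = 2.6e-06), and Klhl31 rose 4.61-fold (log2 fold change 2.21 ± 0.11, edgeR adjusted p = 2.9e-06). Klhl40 rose 3.19-fold (1.67 ± 0.11, edgeR adjusted p = 1.1e-05) and Klhl41 2.53-fold (1.34 ± 0.15, edgeR adjusted p = 1.2e-04). The median log2 fold change was 1.94 over the 4 genes, 2.82 over the 9 muscle genes and -0.01 over all genes.

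The summed level of the 9 muscle genes in muscle spots moved with stage, from 21642 to 27362 CPM in the E14.5 controls to 128417 to 131917 CPM in the E18.5 controls. Scaled to them, the log2 fold changes were -1.498 for Klhl40, -1.82 for Klhl41, -0.96 for Klhl31 and -0.85 for Klhl38. Relative to the summed UMIs of these 9 genes the kelch transcripts were thus lower at E18.5, which need not hold against each gene of the sum. With library size alone the increases were 0.95, 0.62, 1.49 and 1.60 on the log2 scale, on which the median of all genes moved by -0.73. Among markers of other tissue, 4 of 4 endothelial genes were called higher at E18.5 (summed level 219 to 313 CPM at E14.5 and 430 to 485 at E18.5, none at 0), and so were 3 of 3 cartilage genes (16.4 to 32.0 and 53.8 to 948 CPM, none at 0), and their part in the result was not tested. The E14.5 control sections 1 and 2 were processed with Space Ranger 2.0.0 and the other controls with 2.0.1, and within 2.0.1 the single E14.5 control lay below both E18.5 controls for every gene.

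Their partners and relatives were read from lists. The transcripts of 4 listed binding partners were all called higher at E18.5, beside 33.2% of all genes called higher and 65.6% in either direction. Scaled to the muscle genes the median of all genes moved by -3.19, and the partners and lists were not read on that scale. Neb, Acta1 and Tnnt3 of these lists are also among the 9 muscle genes. The nebulin gene Neb had a log2 fold change of 2.43 ± 0.16 (SE), the leiomodin gene Lmod3 1.38 ± 0.16, Nrap, which encodes a scaffold of assembling myofibrils, 3.33 ± 0.19, and the filamin C gene Flnc 0.97 ± 0.14. Of 10 nemaline myopathy and thin filament genes tested, 10 were called higher (list median 2.25), led by Kbtbd13, a further kelch gene mutated in nemaline myopathy, at 4.52 ± 0.28. Of 11 other muscle ubiquitin ligase genes, 10 were called higher (list median 2.11), led by Asb11 at 6.42 ± 0.19. Of 9 genes of the cullin-3 ligase core, 2 were called higher and 3 lower (list median 0.13). Its largest changes were those of Ube2m, a NEDD8-conjugating enzyme, at 0.63 ± 0.10, and Cand1, which exchanges the adaptors of cullin ligases, at -1.41 ± 0.14, and Cul3 itself had 0.13 ± 0.11. Of the 39 other Klhl and Kbtbd genes tested, 12 were called higher and 12 lower (list median -0.01), with Klhl33 at 5.37 ± 0.28 and Kbtbd8 at -2.87 ± 0.15 at the ends.

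The second comparison set CaV1.1 -/- muscle against control muscle. The targeted transcript Cacna1s stood at 13.4 TMM-scaled CPM in the CaV1.1 -/- section at E14.5, against 14.96 to 18.4 in the controls, and at 29.7 at E18.5, against 84.4 and 87.3. Its log2 fold change was -0.30 at E14.5 (edgeR adjusted p = 0.34) and -1.53 at E18.5 (edgeR adjusted p = 0.0013), and the sources used here do not give where its probes lie relative to the mutation. The muscle genes were lower in the mutant as well, with a summed level of 16235 CPM at E14.5 and 71384 CPM at E18.5.

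At E14.5 none of the 4 genes was called, beside 2.08% of all genes. The log2 fold change of Klhl40 was -0.56 (95% interval -0.91 to -0.20, edgeR adjusted p = 0.13) and that of Klhl31 was -0.48 (-0.83 to -0.14, edgeR adjusted p = 0.16). Those of Klhl41 and Klhl38 were -0.35 (-0.81 to 0.10) and -0.16 (-0.53 to 0.21). At an unadjusted p under 0.05 there were 2 genes, and DESeq2 called 2, Klhl40 at -0.58 (DESeq2 adjusted p = 0.0057) and Klhl31 at -0.51 (DESeq2 adjusted p = 0.0086). Scaled to the muscle genes all 4 values turned positive, between 0.0038 and 0.41, while the median of all genes moved by 0.56, and none of the 4 was called.

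At E18.5 Klhl40, Klhl31 and Klhl38 were called lower in CaV1.1 -/- muscle and Klhl41 was not, beside 25.7% of all genes called and 15.2% called lower, and scaling to the muscle genes ended all 3 calls. Klhl31 fell to 0.325 of control, a log2 fold change of -1.62 ± 0.16 (SE, edgeR adjusted p = 0.0015), Klhl40 to 0.484 of control (-1.05 ± 0.16, edgeR adjusted p = 0.0049) and Klhl38 to 0.573 of control (-0.80 ± 0.16, edgeR adjusted p = 0.011). Klhl41 had a log2 fold change of -0.62 (95% interval -1.10 to -0.14, edgeR adjusted p = 0.064), and it passed the threshold with DESeq2, with no filter on low counts, and without the E14.5 control section 1 (edgeR adjusted p = 0.018). The median was -0.92 over the 4 genes and 0.00 over all genes.

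The scaling set the size of these differences. With library size alone, where the median of all genes moved by 0.54, Klhl40 was at -0.51 (edgeR adjusted p = 0.020) and Klhl31 at -1.08 (edgeR adjusted p = 9.2e-04), while Klhl41 was at -0.08 (edgeR adjusted p = 0.71) and Klhl38 at -0.26 (edgeR adjusted p = 0.15). On that plain scale Klhl41 stood at 832 CPM in the mutant and at 895 and 861 in the controls. Scaled to the muscle genes Klhl31 stayed negative at -0.22 (edgeR adjusted p = 0.40), Klhl40 and Klhl38 turned to 0.36 (edgeR adjusted p = 0.16) and 0.60 (edgeR adjusted p = 0.081), and Klhl41 was called higher at 0.79 (edgeR adjusted p = 3.6e-04). On this scale 12468 genes were called, and the median of all genes moved by 1.403, more than any of the 4 kelch genes. With TMM scaling all 9 muscle genes were called lower in this comparison, with a median of -1.29. The 4 endothelial markers were also called lower (390 CPM summed in the mutant), and the 3 Schwann cell markers higher (75.3 CPM against 14.3 to 14.7 in the E18.5 controls, none at 0), and their part in the result was not tested.

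A single gene differed in its CaV1.1 effect between stages. The log2 fold change of Klhl31 in the mutant was lower at E18.5 than at E14.5 by 1.14 ± 0.21 (SE, edgeR adjusted p = 0.031), beside 6.4% of all genes called and 4.18% called lower. The differences for Klhl40, Klhl41 and Klhl38 were -0.49 (95% interval -0.99 to 0.01), -0.26 (-0.91 to 0.38) and -0.64 (-1.15 to -0.13) and were not called. The call for Klhl31 was lost when counts were scaled to the muscle genes (-0.30), in spots away from the muscle border (-0.82, edgeR adjusted p = 0.10), and without E14.5 control section 2 (-1.06, edgeR adjusted p = 0.062) or section 3 (-1.14, edgeR adjusted p = 0.093).

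The third comparison set bCat cKO against control muscle at E18.5. Ctnnb1, which encodes β-catenin, stood at 96.2 TMM-scaled CPM in bCat cKO and at 105 and 97.4 in the E18.5 controls (log2 fold change -0.07, edgeR adjusted p = 0.77). The sources used here do not place its probes relative to the deleted part, and a spot also holds cells without Cre, so this level does not check the label.

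Klhl38 was the 1 kelch gene of the 4 called in bCat cKO muscle, beside 8.8% of all genes and 5.62% called lower. It fell to 0.310 of control, a log2 fold change of -1.69 ± 0.16 (SE, edgeR adjusted p = 0.0024), and it was called lower in each of the 14 alternatives run, between -1.75 and -1.17, including the scaling to the muscle genes. Without TMM scaling the bCat cKO muscle held 10.7 CPM of Klhl38 (95% counting interval 9.83 to 11.7) and the controls 29.3 and 30.3. Klhl40 was at -0.04 (95% interval -0.40 to 0.32) and Klhl41 at -0.26 (-0.73 to 0.21). Klhl31 was at -0.46 (-0.82 to -0.10, edgeR adjusted p = 0.11), and DESeq2 called it (DESeq2 adjusted p = 0.022). The muscle genes summed to 105199 CPM in this section. Of other tissue, the 3 smooth muscle markers summed to 559 CPM against 306 and 311 in the E18.5 controls, the 4 cardiac markers to 3600 against 2050 and 1690, the 4 endothelial markers to 324 against 485 and 430 and the 4 erythrocyte markers to 323 against 705 and 697, with none at 0 in these sections, and 1 endothelial gene was the 1 of these markers called. Their part in the result was not tested.

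**Figure D3:**
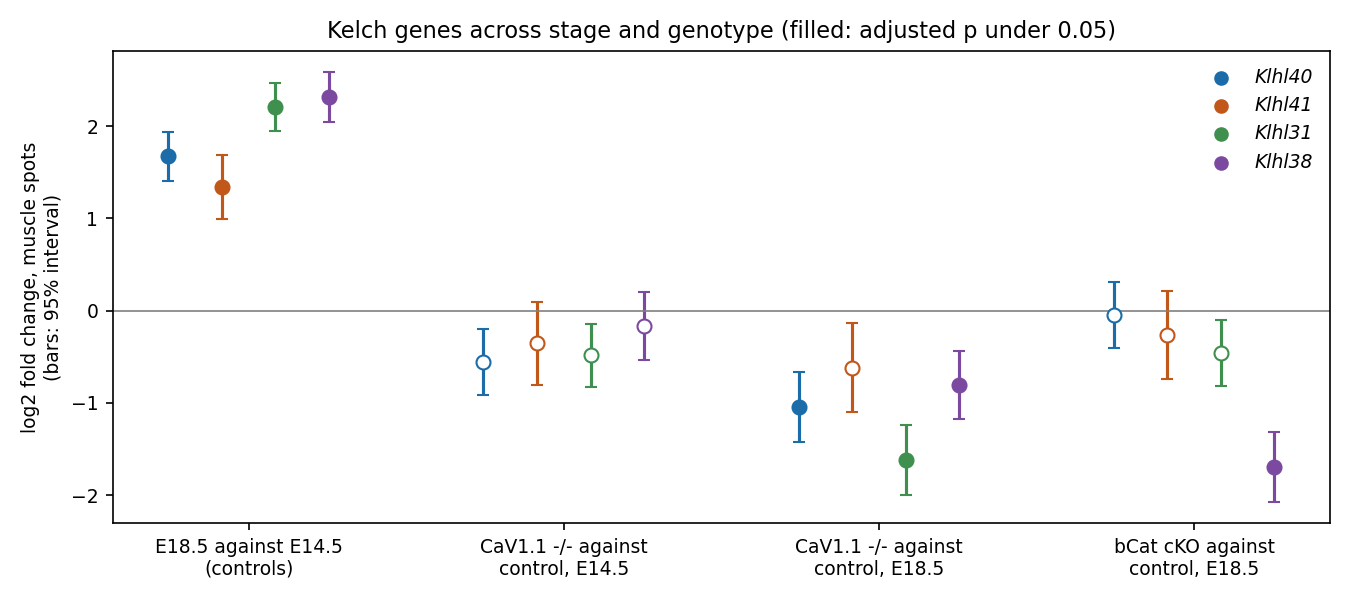
Log2 fold changes of the 4 genes in muscle spots with 95% intervals, in 4 comparisons along the x axis: stage in controls, CaV1.1 -/- at E14.5 and E18.5, and bCat cKO. Filled points passed an edgeR adjusted p below 0.05. With TMM scaling all 4 genes rose with stage (the sign turned with scaling to the muscle genes), Klhl31 was the lowest in CaV1.1 -/- at E18.5 (-1.62), and Klhl38 alone passed in bCat cKO (-1.69).

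The mutants were also set against each other at E18.5, with 1 section each and beside 7.3% of all genes called. CaV1.1 -/- muscle was lower than bCat cKO muscle for Klhl31, with a log2 fold change of -1.16 ± 0.18 (SE, edgeR adjusted p = 0.011), and reached 0.499 of its level for Klhl40 (edgeR adjusted p = 0.020). It was higher for Klhl38 by 0.89 ± 0.18 (edgeR adjusted p = 0.030), and Klhl41 was not called at -0.35 (95% interval -0.90 to 0.19). Without E14.5 control section 3 the calls for Klhl40 (edgeR adjusted p = 0.059) and Klhl38 (0.063) were lost, and scaling to the muscle genes ended those for Klhl31 (-0.28, edgeR adjusted p = 0.36) and Klhl40 (-0.12, edgeR adjusted p = 0.70). The spread behind this comparison comes from the controls alone.

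The binding partners were read in each mutant against controls, and the difference between the mutants was not tested for them. In CaV1.1 -/- muscle at E18.5 all 4 were called lower, Nrap at -2.12 ± 0.27, Flnc at -1.50 ± 0.20, Lmod3 at -0.87 ± 0.23 and Neb at -0.79 ± 0.23 on the log2 scale (SE). Beside them 25.7% of all genes were called and 15.2% were called lower. Scaled to the muscle genes the median of all genes moved by 1.403 in this comparison, and the partners were not read on that scale. Neb is also 1 of the 9 muscle genes. In bCat cKO none was called beside 8.8% of all genes, with Neb at -0.65 (edgeR adjusted p = 0.12), Nrap at 0.29 (0.50), Lmod3 at 0.10 (0.82) and Flnc at -0.06 (0.88). At E14.5 Nrap was the 1 partner called in CaV1.1 -/- (log2 fold change -2.35), beside 2.08% of all genes.

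The counts of the other lists stand beside 25.7% of all genes called and 15.2% called lower in CaV1.1 -/- at E18.5. In bCat cKO these shares were 8.8% and 5.62%. Of the lists, 8 of 10 nemaline myopathy and thin filament genes were called lower in CaV1.1 -/- at E18.5, led by Kbtbd13 at -2.51 ± 0.38, and in bCat cKO Kbtbd13 alone was, at -2.99 ± 0.38. Neb, Acta1 and Tnnt3 of this list are also among the genes that chose the muscle spots. The lists were not read with counts scaled to the muscle genes. Of 11 other muscle ubiquitin ligase genes, 6 were called lower and 1 higher in CaV1.1 -/-, with Asb5 at -2.08 ± 0.39 and Asb14 at 1.07 ± 0.33 at the ends. In bCat cKO 5 were called lower and none higher, namely Fbxo40 (-2.25 ± 0.21), Asb14 (-2.21 ± 0.39), Asb11 (-2.15 ± 0.21), Asb15 (-1.61) and Fbxo32 (-1.39 ± 0.21), which encodes the atrophy-related ligase atrogin-1. Of 9 cullin-3 core genes, 3 were called lower in CaV1.1 -/- at E18.5, Ube2m (-0.77 ± 0.15), Rbx1 (-0.54 ± 0.12) and Cops5 (-0.50), and 0 were called in bCat cKO. Of the 39 other Klhl and Kbtbd genes, 7 were called lower in CaV1.1 -/- (Klhl34 lowest, -2.82 ± 0.44) and 3 higher (Klhl32 highest, 1.91 ± 0.50). In bCat cKO 5 were called lower, and after Kbtbd13 they were Klhl33 (-2.08 ± 0.33), Klhl34 (-1.62 ± 0.38), Kbtbd12 (-0.85 ± 0.13) and Klhl24 (-0.64).

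The chromosomal neighbors of the kelch genes were read as well. The end of Klhl40 lies 197 bases from Hhatl, a gene on the opposite strand, which was called higher with stage (log2 fold change 3.72) and lower in both E18.5 mutants (-0.91 in CaV1.1 -/-, edgeR adjusted p = 0.016, and -0.87 in bCat cKO, edgeR adjusted p = 0.037), whereas Klhl40 was not called in bCat cKO. On its other side Zfp651, 5864 bases away, had 1.405 with stage. Klhl41 lies between Bbs5, 2548 bases away, at 0.08 with stage (edgeR adjusted p = 0.71), and Fastkd1, 2584 bases away, at 0.68 (edgeR adjusted p = 0.0035). The nearest genes to Klhl31 were Lrrc1, which is not in the probe set, and Gclc, 94407 bases away, which was lower at E18.5 (-1.02). Klhl38 has Fbxo32 on 1 side at 99640 bases and on the same strand, and Fam91a1 on the other at 91298 bases. Fbxo32 was called higher with stage (1.63) and lower in bCat cKO (-1.39, edgeR adjusted p = 0.011) and was at -0.15 in CaV1.1 -/- at E18.5 (edgeR adjusted p = 0.62), while Fam91a1 was at 0.28 in bCat cKO (edgeR adjusted p = 0.10).

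The next comparisons asked where along the muscle the kelch transcripts lay. Muscle fibers of the diaphragm carry their neuromuscular junctions in a band at the center and join tendon at the ends. Center spots were the 15% of muscle spots highest for 8 endplate genes, periphery spots the 15% highest for 4 genes of fiber ends, and the rest lay between. These regions are set by markers and not by place. Median distances to other tissue in the E14.5 controls were 200, 265 and 346 µm for center spots. They were 173, 173 and 436 µm between and 100, 173 and 265 µm for periphery spots. In the E18.5 controls they were 600 and 700, 436 and 557, and 173 and 200 µm, respectively. UMIs were summed per section and region, and the regions of a section were compared within it.

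In E14.5 controls Klhl41 and Klhl31 were higher at the center than at the periphery, and 20.4% of all genes were called, with 11.7% called higher. Klhl41 stood at 712, 588 and 610 TMM-scaled CPM in the center of the 3 controls, at 540, 373 and 463 between, and at 436, 334 and 413 in the periphery. The center was the highest and the periphery the lowest region in each section, and the center exceeded the periphery 1.63-fold (log2 fold change 0.70 ± 0.05, edgeR adjusted p = 7.8e-12). Klhl31 stood at 195, 178 and 179 in center spots and at 141, 125 and 134 in periphery spots, which gave a difference of 0.48 ± 0.07 on the log2 scale (edgeR adjusted p = 2.4e-06). Both calls held in each of the 16 alternatives run.

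Klhl40 was not called apart between these marker-defined regions, with 114, 102 and 109 TMM-scaled CPM in center spots and 111, 99.7 and 99.7 in periphery spots (log2 fold change 0.06, 95% interval -0.09 to 0.20). When the regions were set by distance, with the center as the muscle spots farthest from other tissue, it was called higher at the center (0.52 ± 0.11 on the log2 scale, edgeR adjusted p = 0.0026), beside 1694 genes called among all genes. Klhl38 stood at 11.7, 8.19 and 9.73 in the center, at 7.36, 7.17 and 6.78 between, and at 16.8, 10.5 and 9.22 in the periphery. Its center and periphery were not called apart (-0.32, 95% interval -0.70 to 0.05), but its periphery exceeded the spots between by 0.76 ± 0.16 (SE, edgeR adjusted p = 0.0015, beside 7.59% of all genes), while the periphery was lower than the spots between for Klhl41 (-0.21, edgeR adjusted p = 0.0070). At E14.5 no comparison with the spots between was run under the alternatives. Klhl38 had 221, 278 and 120 UMIs in all muscle spots of these controls. Up to 100 µm from other tissue it stood at 12.4, 7.02 and 4.51 CPM, and over 100 to 200 µm at 8.61, 11.7 and 8.78. The border was thus not the higher place in controls 2 and 3. Against the spots between, the center was higher for Klhl41 (0.49), Klhl31 (0.40) and Klhl40 (0.19, edgeR adjusted p = 0.026), beside 14.4% of all genes called and 7.11% called higher, and Klhl38 was not called at 0.44 (edgeR adjusted p = 0.058). The summed muscle genes in the E14.5 controls were 25136 to 29706 CPM for center spots, 22721 to 28424 CPM for periphery spots, and the 5 tendon markers, none at 0, were at 334 to 379 and 661 to 846 CPM. The part of these in the result was not tested.

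**Figure D4:**
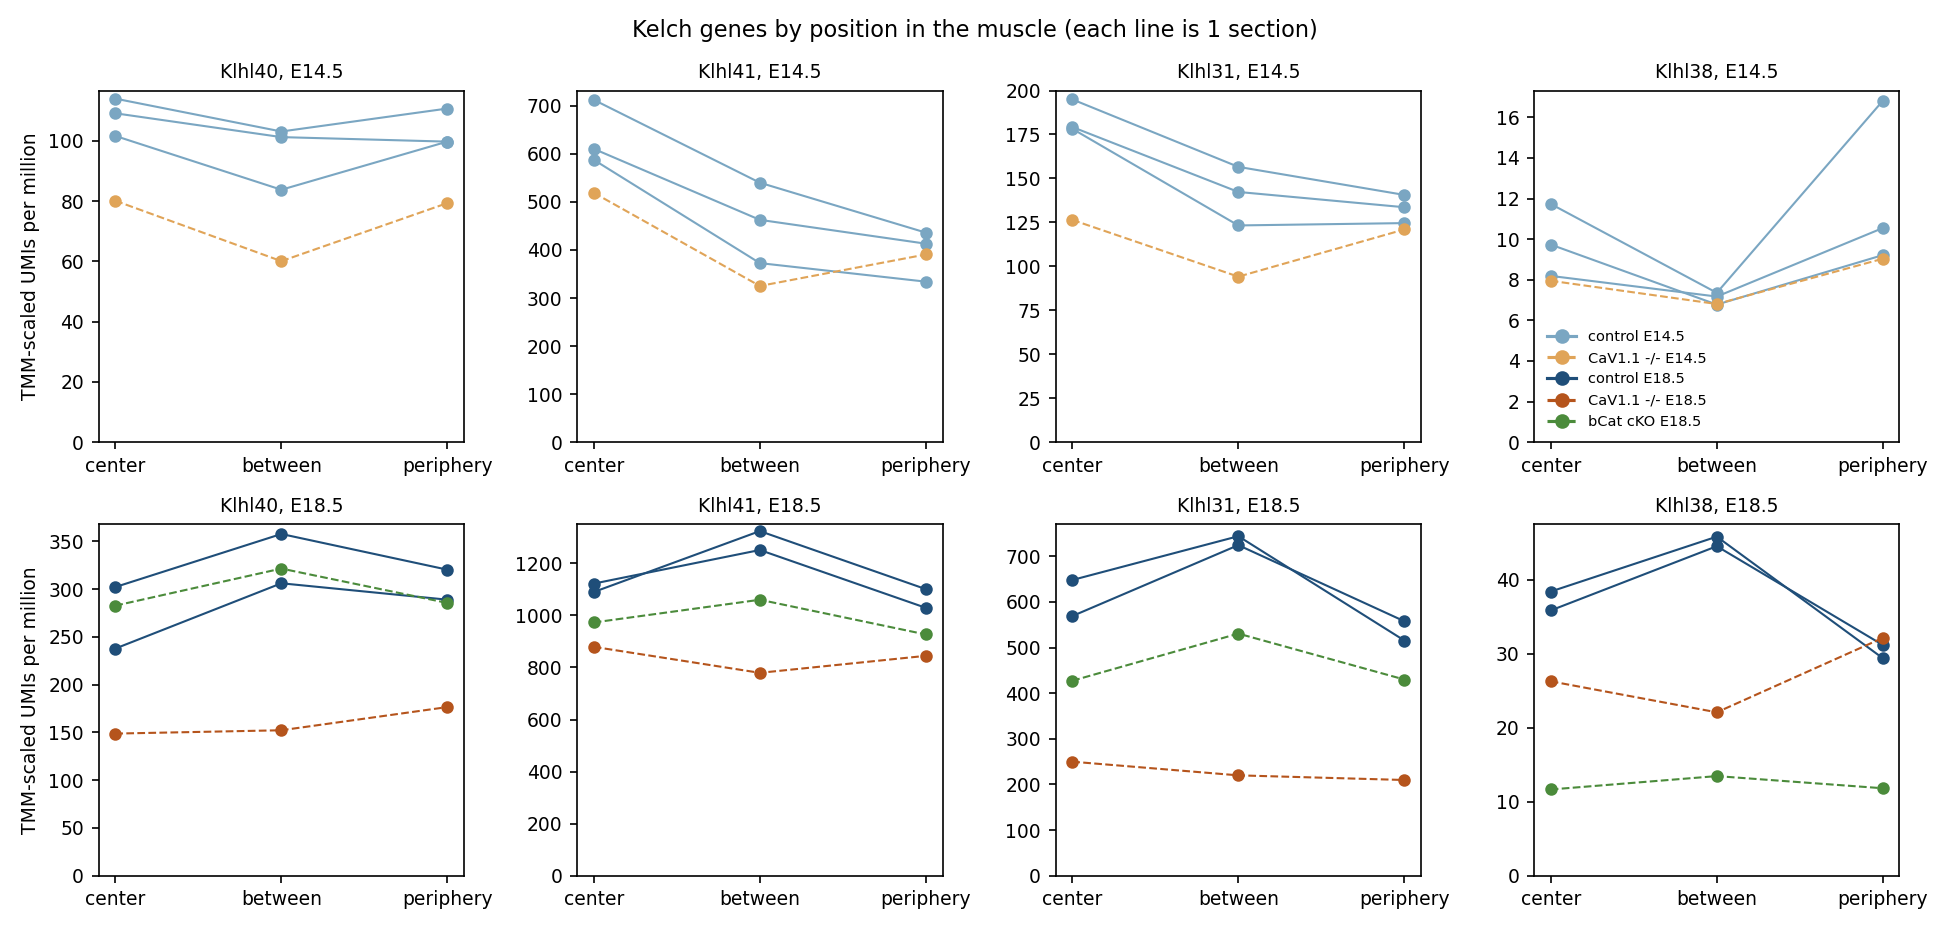
TMM-scaled CPM of the 4 genes in the center, between and periphery of the muscle, 1 line per section, solid for controls and dashed for mutants, with E14.5 above E18.5. In the 3 E14.5 controls the lines of Klhl41 fall from center (588 to 712) to periphery (334 to 436), and at E18.5 the spots between are the highest for all 4 genes in both controls.

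With the regions set by distance, center minus periphery in controls was 0.55 at E14.5 and 0.65 at E18.5 for Klhl41 on the log2 scale. For Klhl31 it was 0.63 and 0.87. At E18.5 the regions set by markers stood in a different order. In both controls each of the 4 genes was highest in the spots between the center and the periphery, with Klhl41 at 1324 and 1251 TMM-scaled CPM there, at 1090 and 1122 in center spots and at 1101 and 1029 in periphery spots. Against the spots between, the periphery was lower for Klhl38 by 0.57 ± 0.08 on the log2 scale (SE, edgeR adjusted p = 8.9e-07), for Klhl31 by 0.45 ± 0.05 (edgeR adjusted p = 4.5e-08) and for Klhl41 by 0.27 ± 0.05 (edgeR adjusted p = 1.9e-04), beside 30.8% of all genes called and 19.6% called lower, while Klhl40 was at -0.12 (edgeR adjusted p = 0.068). With counts scaled to the muscle genes, 8817 genes were called and the median of all genes moved by 0.40. Klhl40 and Klhl41 then turned to 0.32 and 0.17, the calls for Klhl38, Klhl31 and Klhl41 were lost, and Klhl40 was called higher. The center was called lower than the spots between for all 4 genes (-0.30, -0.22, -0.27 and -0.29 for Klhl40, Klhl41, Klhl31 and Klhl38), beside 12% of all genes called and 7.92% called lower, and 0 were called without E18.5 control section 1 or when counts were scaled to the muscle genes. With the regions set by distance these values turned to 0.078, 0.044, 0.17 and 0.069 and 0 were called, while the periphery was then called lower than the spots between for all 4 genes, Klhl40 included at -0.48 (edgeR adjusted p = 0.0014). Among all genes, 24 were called by distance for the center against the spots between, and 4986 for the periphery against them. The summed muscle genes were 133639 and 136652 CPM between, 118497 and 126101 at the center, 114862 and 115083 at the periphery, and tendon markers were at 884 and 1192 CPM in the periphery and 294 and 357 between.

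Directly between center and periphery at E18.5, Klhl40 was called lower at the center (-0.18 ± 0.05) and Klhl31 (0.18 ± 0.06) and Klhl38 (0.29 ± 0.10) higher, beside 20.8% of all genes, and Klhl41 was at 0.06. Only 1 of these calls was left without E18.5 control section 1 or without section 2, and DESeq2 made none. Scaling to the muscle genes ended the calls for Klhl31 (0.019) and Klhl38 (0.13). With the regions set by distance 5090 genes were called, against 2948 with the regions set by markers. All 4 kelch genes were then called higher at the center, Klhl40 turning to 0.55 (edgeR adjusted p = 4.0e-04) and Klhl41, Klhl31 and Klhl38 standing at 0.65, 0.87 and 0.96 on the log2 scale. The difference between center and periphery fell between the stages for Klhl41 by 0.65 ± 0.08 (SE, edgeR adjusted p = 5.5e-07) and for Klhl31 by 0.30 ± 0.09 (edgeR adjusted p = 0.029), beside 8.12% of all genes called and 4.58% called lower, and with the regions set by distance the values turned to 0.10 and 0.23 and neither was called. The call for Klhl31 was also lost with counts scaled to the muscle genes (edgeR adjusted p = 0.16), with DESeq2, and without E14.5 control section 1 or 2 or E18.5 control section 1 (-0.45 to -0.15 over the controls left out in turn).

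The mutants were compared with the controls of their stage for the same gradient. The paper reports that the endplate genes Chrna1 and Musk were not confined to the fiber center in CaV1.1 -/- at E18.5. The endplate genes that set the center summed to 2020 CPM in muscle spots of that section, against 1046 and 1057 in its controls. Whether its center spots mark the same place as in controls was not tested, so uncalled differences there do not show an unchanged gradient. With the regions set by distance, 0 of the 4 genes were called there as well, beside 200 genes called among all genes. In CaV1.1 -/- at E14.5 Klhl41 stood at 519 TMM-scaled CPM in center spots and 391 in periphery spots, and Klhl31 at 126 and 121. Center minus periphery differed from the controls by -0.30 for Klhl41 (95% interval -0.51 to -0.08) and by -0.41 for Klhl31 (-0.69 to -0.13), and 0 of the 4 genes were called beside 0.141% of all genes. Adjusted p (edgeR) lay between 0.29 and 0.98, with 2 genes at an unadjusted p under 0.05 and 0 called by DESeq2. In CaV1.1 -/- at E18.5 the adjusted p (edgeR) lay between 0.51 and 1.0, beside 0.593% of all genes called, with 1 gene at an unadjusted p under 0.05, which was Klhl38 at -0.58 (95% interval -1.14 to -0.02), and 0 called by DESeq2. In bCat cKO it lay between 0.57 and 0.99, beside 1.24% of all genes called, with 0 genes at an unadjusted p under 0.05 and 0 called by DESeq2.

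The distance of a muscle spot from the nearest spot outside muscle gave a position that uses no marker of the center or of fiber ends. Up to 100 µm from other tissue, Klhl41 stood at 498, 402 and 409 CPM in the E14.5 controls, and beyond 300 µm at 775, 574 and 594 CPM. At E18.5 it stood at 792 and 688 CPM up to 100 µm and at 904 and 885 CPM beyond 300 µm in the controls, at 655 and 1029 in CaV1.1 -/-, and at 660.5 and 891 in bCat cKO. The border spots were thus the lower ones in each of these sections. For the other genes the border was the higher end in 3 cases, Klhl38 in bCat cKO (11.3 CPM up to 100 µm and 10.3 beyond 300 µm), Klhl38 in E14.5 control 1 (12.4 and 11.1) and Klhl40 in E18.5 control 1 (211 and 204). Border spots are also where a spot can cover tissue on both sides, so this profile is a description.

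The last comparison set slow-rich against fast-rich muscle spots at E18.5. They were the 25% of muscle spots with the highest and the 25% with the lowest score of 6 type I (slow) minus 5 type IIb (fast) fiber genes. In controls Klhl38 stood at 34.6 and 32.8 TMM-scaled CPM in slow-rich and at 45.5 and 47.4 in fast-rich spots, and Klhl31 at 612 and 598 and at 743 and 765. The slow-rich spots were lower in both controls for both genes, by 0.46 ± 0.11 on the log2 scale for Klhl38 (SE, edgeR adjusted p = 0.0039) and by 0.32 ± 0.08 for Klhl31 (edgeR adjusted p = 0.0057), beside 15.4% of all genes called and 9.02% called lower, and neither was called without E18.5 control section 1 or without section 2. Klhl40 and Klhl41 were at -0.11 (95% interval -0.27 to 0.05) and -0.15 (-0.33 to 0.03). Scaled to the muscle genes, both calls were lost (Klhl38 -0.057, edgeR adjusted p = 0.71, and Klhl31 0.088, edgeR adjusted p = 0.49), and Klhl40 and Klhl41 were called higher in slow-rich spots (0.30, edgeR adjusted p = 0.015, and 0.25, edgeR adjusted p = 0.046). On that scale 8049 genes were called, and the median of all genes moved by 0.39, more than either gene.

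In both mutants the step between slow-rich and fast-rich spots was larger for some of the genes, though not once counts were scaled to the muscle genes, when none was called. The spots were ranked within each section. The 6 type I genes summed to 4769 CPM in bCat cKO muscle spots, 6989 in CaV1.1 -/- and 7070 and 8493 in the controls. Whether slow-rich spots hold the same fibers across genotypes was not tested. In CaV1.1 -/- Klhl40 stood at 110.5 TMM-scaled CPM in slow-rich and 210.3 in fast-rich spots, Klhl41 at 617 and 1050.3, and Klhl31 at 175 and 307. These 3 were called lower in slow-rich spots (-0.93 ± 0.15, -0.77 ± 0.13 and -0.81 ± 0.13, beside 16.9% of all genes called and 9.56% called lower). In bCat cKO Klhl40 stood at 249 and 390.3, Klhl41 at 861 and 1259.7 and Klhl31 at 364 and 660.2 (-0.65 ± 0.11, -0.55 ± 0.13 and -0.86 ± 0.11, all 3 called, beside 21.6% of all genes called and 14.1% called lower), and Klhl38 was not called in either mutant (-0.54 and -0.59).

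Slow-rich minus fast-rich in CaV1.1 -/- differed from that in the controls by -0.82 ± 0.16 for Klhl40 (SE, edgeR adjusted p = 0.0029), by -0.62 ± 0.16 for Klhl41 (edgeR adjusted p = 0.017) and by -0.49 ± 0.15 for Klhl31 (edgeR adjusted p = 0.044), beside 7.23% of all genes called and 4.1% called lower. In bCat cKO it differed by -0.54 ± 0.13 for Klhl40 (edgeR adjusted p = 0.014) and by -0.54 ± 0.13 for Klhl31 (edgeR adjusted p = 0.013), beside 7.02% of all genes called and 5.64% called lower, and neither was called without E18.5 control section 1 and only Klhl31 without section 2. In CaV1.1 -/- 1 gene of the 4, Klhl40, was still called without E18.5 control section 1, and Klhl40 and Klhl41 were without section 2. The 9 muscle genes moved with the split, with 119145 and 120573 CPM in slow-rich and 139535 and 143547 in fast-rich spots of the controls, 51837 and 93250 in CaV1.1 -/-, and 82707 and 127608 in bCat cKO. The 5 tendon markers, none at 0, moved the other way, with 501 and 596 CPM in slow-rich and 267 and 286 in fast-rich spots of the controls, 517 and 323 in CaV1.1 -/-, and 852 and 282 in bCat cKO. The part of either in the result was not tested.

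**Figure D5:**
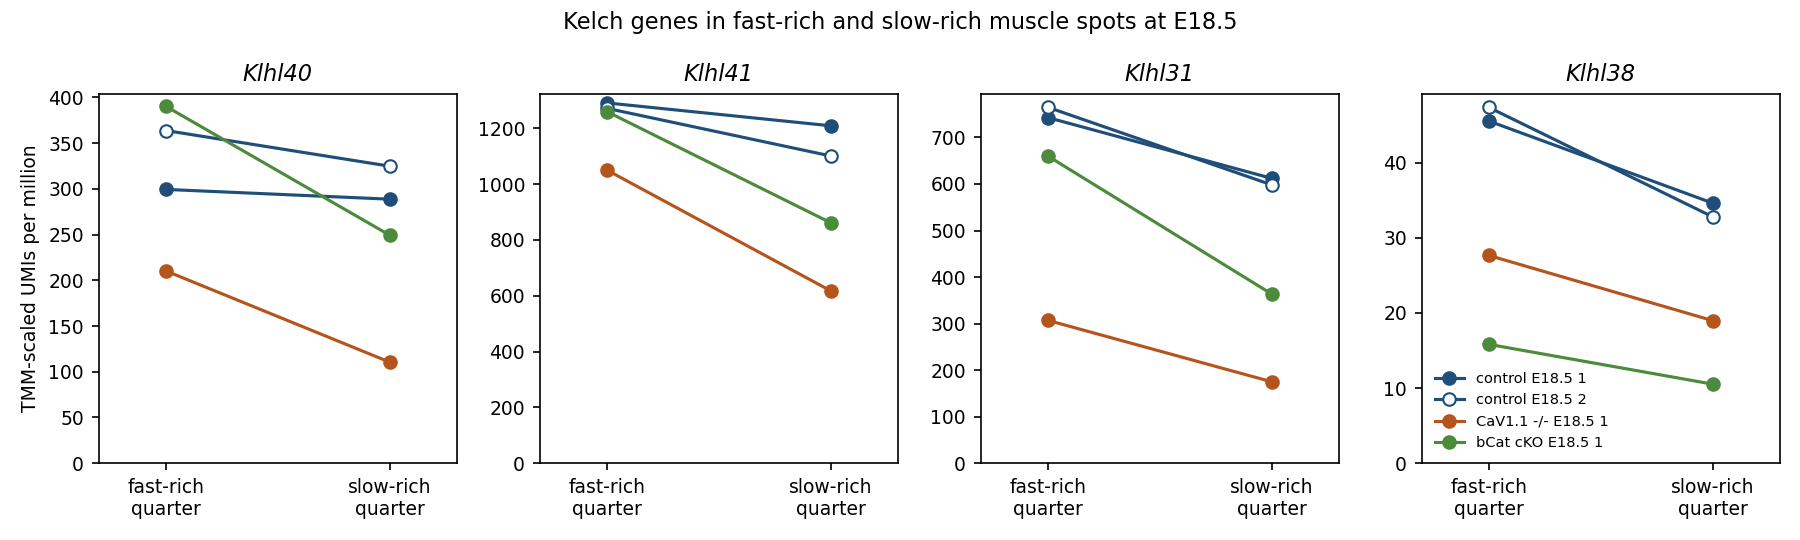
TMM-scaled CPM of the 4 genes in fast-rich and slow-rich muscle spots, 1 line per E18.5 section. The lines of Klhl40 and Klhl41 fall more steeply in CaV1.1 -/- (210.3 to 110.5 for Klhl40) and bCat cKO (390.3 to 249) than in the 2 controls.

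From spot to spot within a section, correlations between the kelch transcripts were low. A muscle spot held on average 2.77 to 7.88 Klhl40 UMIs and 3.98 to 14.3 Klhl31 UMIs over the sections. The part of counting error in these correlations was not tested. Pearson's r of log-normalized values over muscle spots, whose points share library and depth, had a median over the 8 sections of 0.27 for Klhl41 and Klhl31, 0.24 for Klhl40 and Klhl41 and 0.16 for Klhl40 and Klhl31. Pairs with Klhl38 had medians of 0.04 to 0.07, at the low counts of that gene. The genes most like each kelch gene by mean r over the 8 sections, taken where the mean log2 CPM reached 5, were mostly contractile genes. For Klhl41 they were Tnnc2 (0.49), Myl1 (0.47), Acta1 (0.45), Mylpf (0.44) and Tpm2 (0.43), and for Klhl31 Tnnt3 (0.35), Myl1, Tnnc2, Acta1 and Mylpf (0.33). For Klhl40 they were Myl1 (0.32), Acta1, Ldb3, Tnnc2 and Cryab (0.26), with Klhl41 at rank 8 of 6096 genes. For Klhl38 they were Mylpf (0.11), Tnnc2, Cox6a2, Igf2 and Acta1 (0.10).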

How the data were processed

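Spots under tissue were deposited as counts, that is distinct UMIs per gene and spot, made by the authors with Space Ranger (2.0.0 for the E14.5 controls 1 and 2 and the E14.5 CaV1.1 -/- section, 2.0.1 for the others, per the file headers) on mm10 with the mouse FFPE probe set, without normalization or pooling. Groups come from the labels, and the 4 genes were found by symbol. The genes, gene lists and tests were chosen with earlier results of these data known. Spots with fewer than 1000 UMIs were dropped. Muscle spots were those whose mean log-normalized value (10000 UMIs per spot) of the 9 muscle genes exceeded Otsu's threshold of the section. A spot with scores high for both center and periphery went to the higher one, and no kelch gene enters a score.

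Counts were summed per section, or per section and region, and tested with edgeR 4.0.16 (quasi-likelihood F test, filterByExpr, TMM) in R 4.3.3, with Benjamini-Hochberg adjustment over all genes tested and adjusted p below 0.05 as the call. Muscle sums were fitted over 8 sections in 5 groups (14832 genes, 3 residual degrees of freedom). The fits of region and fiber type sums had a term for the section (14170 and 13710 genes). Genes in a score were left out of the background of the comparison that uses it. Sections, not spots, are the replicates, whereas the study's own test took single spots. The scripts were tested on simulated data. Intervals on counts are exact Poisson intervals and cover counting error only. Alternatives were DESeq2 1.42.0 and its size factors, scaling to the muscle genes, library size alone (added, like the tests of the slow to fast difference between mutants and controls, after the data were seen), no filter on low counts, no minimum of UMIs, muscle spots by Ttn alone or away from the border (over 150 µm), other shares or definitions of the regions, the block, and each control left out. Genes named are the 4 kelch genes and the targeted genes, the 5 genes most like each by correlation, the known partners, the called genes of each list with the largest change, and the nearest gene on each side. Asb15, Cops5, Klhl24 and Kbtbd12 were named as members of small counts after their values were seen. Promoters are from RefSeq (GRCm38.p6; 3 of the 4 genes matched), and gene positions from GENCODE vM21.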

Additional observations from a re-analysis of the deposited data

Results flagged for a closer look

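Effects that differed between groups by a test of the difference itself are listed here with their values. Klhl31 had a lower CaV1.1 -/- effect at E18.5 than at E14.5, with a difference of -1.14 on the log2 scale (edgeR adjusted p = 0.031). Center minus periphery differed between the stages in controls by -0.65 for Klhl41 (edgeR adjusted p = 5.5e-07) and by -0.30 for Klhl31 (edgeR adjusted p = 0.029). Slow-rich minus fast-rich differed between CaV1.1 -/- and control muscle by -0.82 for Klhl40 (edgeR adjusted p = 0.0029), -0.62 for Klhl41 (0.017) and -0.49 for Klhl31 (0.044). The same difference between bCat cKO and control muscle was -0.54 for Klhl40 (edgeR adjusted p = 0.014) and -0.54 for Klhl31 (edgeR adjusted p = 0.013). With the regions set by distance, the center to periphery differences turned to 0.10 and 0.23 and neither was called. Scaled to the muscle genes, the listed calls other than that for Klhl41 between center and periphery were lost. The slow to fast differences were added as tests after the data were seen, and whether slow-rich spots hold the same fibers across genotypes was not tested.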

How the results depend on the processing

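The 4 genes called with stage stayed called under each of the 14 alternatives, with the sign turned only by scaling to the muscle genes, and Klhl38 in bCat cKO and Klhl41 and Klhl31 between center and periphery at E14.5 kept their calls and signs throughout. Scaled to the muscle genes, the log2 fold changes of Klhl40, Klhl41, Klhl31 and Klhl38 turned to -1.498, -1.82, -0.96 and -0.85 with stage and to 0.0038, 0.22, 0.081 and 0.41 in CaV1.1 -/- at E14.5. Klhl40, Klhl41 and Klhl38 turned to 0.36, 0.79 and 0.60 in CaV1.1 -/- at E18.5 and to 0.36, 0.57 and 0.20 in its difference between stages, and Klhl40, Klhl41 and Klhl31 to 0.48, 0.26 and 0.065 in bCat cKO and to 0.30, 0.25 and 0.088 between slow-rich and fast-rich control spots. Klhl41 turned to 0.53 between the mutants, Klhl40 to -0.094 between center and periphery at E14.5, Klhl41 to -0.10 at E18.5, Klhl41 and Klhl31 to 0.064 and 0.0089 between the E18.5 center and the spots between, and Klhl40 and Klhl41 to 0.32 and 0.17 between the E18.5 periphery and the spots between. In the slow to fast difference from controls, Klhl41, Klhl31 and Klhl38 turned to 0.081, 0.20 and 0.61 for CaV1.1 -/-, and all 4 genes to 0.048, 0.19, 0.043 and 0.46 for bCat cKO. That scaling moved the median of all genes by -3.19 with stage, 0.56 in CaV1.1 -/- at E14.5, 1.403 at E18.5 and 0.52 in bCat cKO. It moved that median by 0.39 between slow-rich and fast-rich control spots and by 0.40 between the E18.5 periphery and the spots between. It left 1 gene called in CaV1.1 -/- at E18.5, 0 in its difference between stages, 1 between the mutants, 1 between center and periphery at E18.5, 0 between center and the spots between, 1 between periphery and the spots between, 1 in the stage difference of center minus periphery and 0 in both slow to fast differences from controls. With library size alone the median moved by -0.73 with stage, 0.54 in CaV1.1 -/- at E18.5 and 0.21 in bCat cKO. Klhl40 then turned to 0.17 in bCat cKO, Klhl40 and Klhl41 to 0.040 and 0.26 in the stage difference of the CaV1.1 -/- effect, Klhl40 to -0.015 between center and periphery at E14.5, Klhl41 to -0.017 at E18.5, Klhl40 to 0.089 between periphery and the spots between, Klhl40 and Klhl41 to 0.057 and 0.014 between slow-rich and fast-rich control spots, and Klhl38 to 0.0072 and 0.074 in the differences of CaV1.1 -/- and bCat cKO from these. It called 1 gene between center and periphery at E18.5, 2 between center and the spots between, 1 between slow-rich and fast-rich control spots and 0 in the difference of bCat cKO from these. DESeq2 called 2 genes in CaV1.1 -/- at E14.5, 2 in bCat cKO, 0 between center and periphery at E18.5, 2 between center and the spots between, 1 in the stage difference of center minus periphery, 0 between slow-rich and fast-rich control spots and 1 in the difference of bCat cKO from these. Spots away from the border left 0 genes in the stage difference of the CaV1.1 -/- effect and turned Klhl40 in bCat cKO to 0.078. Muscle spots by Ttn alone left 1 gene in the stage difference of center minus periphery, a region share of 25% left 0 genes between center and periphery at E18.5, and the 10% of muscle spots at either end of the fiber score left 1 gene in the slow to fast difference of bCat cKO from controls. Regions set by distance left 0 genes between center and the spots between and 0 in the stage difference of center minus periphery, and turned Klhl38 to 0.11 between center and periphery at E14.5, Klhl40 to 0.55 at E18.5, all 4 genes to 0.078, 0.044, 0.17 and 0.069 between the E18.5 center and the spots between, and Klhl40, Klhl41 and Klhl31 to 0.033, 0.10 and 0.23 in the stage difference. The cause of these changes was not tested.

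Leaving out each control in turn gave 0 to 1 genes called in the stage difference of the CaV1.1 -/- effect, 1 to 3 between the mutants, 1 to 3 between center and periphery at E18.5, 0 to 4 between center and the spots between, 1 to 3 in the stage difference of center minus periphery, 0 to 2 between slow-rich and fast-rich control spots, 1 to 3 in the difference of CaV1.1 -/- from these and 0 to 3 in that of bCat cKO. Klhl40 in bCat cKO then ranged from -0.15 to 0.074 and Klhl41 between center and periphery at E18.5 from -0.014 to 0.12. With 1 control left at E18.5, that section is assumed to vary like the other groups.

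The labels number the controls of both stages, and their deviations from the group means correlated at -0.18 and -0.23 between same-numbered sections. The deviations of the E18.5 controls mirror each other, so these values cannot decide whether the numbers pair sections. The main muscle fit had no replicate block. With a replicate block in the muscle fit 0 genes were called in the stage difference of the CaV1.1 -/- effect and 0 between the mutants. With no replicate block, that is without the section as a block in the region and fiber fits, 0 were called between center and periphery at E18.5, 0 between center and the spots between, 0 in the stage difference, 0 between slow-rich and fast-rich control spots and 0 in both differences from these.

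Counts over all genes moved more than those of the 4 genes. Against 308 genes called in CaV1.1 -/- at E14.5 the alternatives gave 0 to 4939, against 3819 at E18.5 they gave 2525 to 12468, against 1305 in bCat cKO 81 to 3886, against 949 in the stage difference of the CaV1.1 -/- effect 0 to 4715, and against 1082 between the mutants 512 to 8482. Against 2882 and 2948 between center and periphery at E14.5 and E18.5 they gave 1216 to 3611 and 731 to 5090, against 1700 and 4360 for center and periphery against the spots between 24 to 4900 and 987 to 8817, and against 1149 in the stage difference 118 to 1668. Against 20, 84 and 175 in the center to periphery differences of CaV1.1 -/- at E14.5, CaV1.1 -/- at E18.5 and bCat cKO from controls they gave 0 to 180, 0 to 201 and 1 to 303, and against 2109, 991 and 962 in the slow to fast comparisons of controls, CaV1.1 -/- and bCat cKO 82 to 8049, 0 to 6466 and 0 to 5623. With 1 section per mutant group, the spread between mutant embryos was not measured. Klhl38 at E14.5 rests on 120 to 278 UMIs per section, which limits its precision there.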
